A study of Mus musculus with 12 samples.

Results

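MHC class I genes and the genes that feed peptides to class I were followed over 12 RNA-seq libraries of mouse eye tissue. The group held 10 of the 21930 genes in the count table: the heavy chains H2-K1, H2-D1, H2-Q4, H2-Q7 and H2-T23, the light chain B2m, the peptide transporter subunits Tap1 and Tap2, and the immunoproteasome subunits Psmb8 and Psmb9. Each symbol matched 1 gene of the table. The members were chosen by name with results of these data already known, and the contrast taken as the one they were selected on is IF + NaIO3 against AL + NaIO3. Member values of that contrast are therefore given as a description, with no p-value for a single member, and so are those of every other comparison that uses the AL + NaIO3 or the IF + NaIO3 libraries. Counts of members past a threshold in these comparisons are part of that description. The comparison of IF + PBS with AL + PBS uses none of those 6 libraries.

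The libraries came from male wild type C57BL/6J mice, 3 in each of 4 groups. AL mice ate freely and IF mice fasted on alternate days for 12 weeks from 8 weeks of age. Each mouse then received 1 intraperitoneal injection of PBS, the vehicle, or of NaIO3 at 25 mg/kg, an oxidant that damages the retinal pigment epithelium (RPE), and tissue was taken 7 days later. The 4 groups were thus AL + PBS, IF + PBS, AL + NaIO3 and IF + NaIO3. The tissue is named RPE, choroid and sclera in the sample labels and eye cup in the extraction protocol. The 10 photoreceptor markers and the 10 RPE markers on the lists used here were detected in every library, so the libraries held RNA of neural retina as well as of RPE. The labels name no further clone, transgene or pooling, and each library is labelled as 1 sample of its group.

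Nearly all nucleated cells display class I molecules, each made of a membrane-bound heavy chain, the light chain beta-2 microglobulin and a short peptide. The proteasome cuts cytosolic proteins into peptides, the TAP transporter carries these into the endoplasmic reticulum, and loaded complexes travel to the cell surface, where CD8 T cells and natural killer cells inspect them. Interferon-gamma raises most of these genes and replaces catalytic subunits of the standard proteasome with those of the immunoproteasome. Neural retina is known for low class I levels, while microglia, macrophages, endothelium and lymphocytes express more.

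All members but B2m lie in the MHC on chromosome 17. In the coordinates of the deposited files H2-K1 spans chr17:33996017-34000347, and the processing cluster holds Psmb9 at chr17:34181987-34187764, Tap1 at chr17:34187553-34197225, Psmb8 at chr17:34197721-34201454 and Tap2 at chr17:34203527-34216321. H2-D1 follows at chr17:35262730-35267499, H2-Q4 at chr17:35379617-35385290, H2-Q7 at chr17:35439155-35443773 and H2-T23 at chr17:36029773-36032855. B2m is at chr2:122147686-122153083. The positions of 10 of 10 members overlap the same gene in RefSeq GRCm38.p6 and those of 0 members do in GENCODE vM39 on GRCm39, although the processing notes name GRCm39, and the coordinates are read here as GRCm38.

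Promoters of 3 heavy chains, H2-K1, H2-Q4 and H2-Q7, and of B2m are shown in full as examples. Those of H2-D1 and H2-T23 are shown only around their motifs. Each line gives 250 bases before the RefSeq start on GRCm38.p6, read 5′ to 3′ on the strand of the gene. Capitals mark Y boxes (CCAAT, on either strand), IRF elements (GAAA, 2 bases, GAAA, on either strand) and the only 2 runs of 10 or more bases found in the windows of H2-K1, H2-D1, H2-Q4 and H2-Q7 alike.
H2-K1, chr17:34000348-34000597, minus strand: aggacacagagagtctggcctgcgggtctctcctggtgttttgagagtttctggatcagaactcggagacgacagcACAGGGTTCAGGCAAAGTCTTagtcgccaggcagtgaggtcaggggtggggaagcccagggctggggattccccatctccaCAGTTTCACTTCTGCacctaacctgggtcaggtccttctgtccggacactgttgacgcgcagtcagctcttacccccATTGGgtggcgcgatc
H2-Q4, chr17:35379367-35379616, plus strand: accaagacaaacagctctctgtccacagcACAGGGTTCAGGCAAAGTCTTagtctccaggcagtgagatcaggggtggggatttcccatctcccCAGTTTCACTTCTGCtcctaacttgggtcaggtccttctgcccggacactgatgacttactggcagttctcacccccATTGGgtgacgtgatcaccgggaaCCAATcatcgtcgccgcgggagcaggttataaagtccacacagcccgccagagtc
H2-Q7, chr17:35438905-35439154, plus strand: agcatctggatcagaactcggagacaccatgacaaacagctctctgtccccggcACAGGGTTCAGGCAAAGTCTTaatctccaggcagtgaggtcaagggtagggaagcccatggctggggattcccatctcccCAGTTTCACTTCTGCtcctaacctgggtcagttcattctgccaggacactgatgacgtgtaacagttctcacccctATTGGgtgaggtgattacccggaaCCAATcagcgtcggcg
B2m, chr2:122147437-122147686, plus strand: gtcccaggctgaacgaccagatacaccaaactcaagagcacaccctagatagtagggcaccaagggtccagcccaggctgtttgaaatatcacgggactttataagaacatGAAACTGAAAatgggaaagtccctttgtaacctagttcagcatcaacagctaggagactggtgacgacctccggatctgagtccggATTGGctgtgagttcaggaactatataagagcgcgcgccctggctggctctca

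The run of 21 bases was found in the promoters of 5 genes among 27025 (0.0185%), namely H2-K1, H2-D1, H2-Q4, H2-Q7 and H2-Q6. The run of 15 bases was found in those of 6 (0.0222%), the same 5 and H2-Q10. These 5 and 6 genes belong to 1 gene family with similar sequence, and the runs were picked after the sequences were seen. A promoter window was found for 9 of the 10 members, with none for Tap2. A Y box stood in 8 of the 9 windows and in 34.5% of all 27025, where the windows of Tap1 and Psmb9 overlap on opposite strands and count the same site in both. H2-K1, H2-D1, H2-Q4 and H2-Q7, which share the runs above, are among the 8, so these windows are not independent. By the exact pattern used here, an IRF element stood in 2 of 9 (B2m and H2-T23) and in 3.04% of all. Sites that depart from this pattern were not searched for. A GAS element (TTC, 3 bases, GAA) stood in 1 of 9, that of Psmb8, and in 7.18% of all, and the CRE core TGACGTCA stood in 0 of 9 and in 1.62% of all. The short matches of H2-T23, H2-D1 and Psmb8 are printed with the motif in capitals.
H2-T23, chr17:36032806-36032835, minus strand: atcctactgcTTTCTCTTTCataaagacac
H2-D1, chr17:35263018-35263045, plus strand: ATTGGgtggcgagattccaggagCCAAT
Psmb8, chr17:34198088-34198116, plus strand: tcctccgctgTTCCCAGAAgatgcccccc
A pair of Y boxes in opposite orientation stood before the RefSeq start of H2-D1, H2-Q4 and H2-Q7 and before the second RefSeq start listed for H2-K1. Not every RefSeq start is the outer end of the gene in the deposited files, and 250 of 250 window bases of H2-D1, Psmb8 and Psmb9 and 154 of H2-T23 lie inside those spans. These matches describe letters in a window, and no binding was measured.

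Library totals were between 26364665 and 43046950 counts. H2-Q7 was the least covered member, with 5 to 14 counts in the AL + PBS libraries and 4 to 10 in the IF + NaIO3 libraries. AL + NaIO3 replicate 3 stood apart. Its summed photoreceptor markers were 19738 CPM (counts scaled to library depth) against 38385 and 65575 in the other AL + NaIO3 libraries, and its summed choroid and sclera stroma markers were 1287 CPM against 184.7 and 98.8. AL + NaIO3 replicate 2 held 443.7 CPM of cornea markers against 34.7 and 23.5. These CPM values are scaled with TMM factors over the 12 libraries.

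Per gene length, B2m was the most abundant member in every group, and H2-Q7 the least abundant. On the authors' FPKM scale, which compares levels between genes, AL + PBS libraries held 57.1 ± 5.75 FPKM of B2m (SD, n = 3), 13.4 ± 1.10 of H2-K1, 9.47 ± 3.64 of H2-D1 and 5.56 ± 1.5 of H2-T23. H2-Q4 and Tap2 followed at 2.04 ± 0.472 and 1.96 ± 0.358 FPKM, then Psmb8 at 1.32 ± 0.173, Tap1 at 0.648 ± 0.234, Psmb9 at 0.580 ± 0.188 and H2-Q7 at 0.103 ± 0.0475. The ranges of H2-K1 and H2-D1 overlapped in this group, as did those of H2-D1 and H2-T23, of H2-Q4 and Tap2, and of Tap1 and Psmb9. The first 4 places were the same in all 4 groups, and Tap2 stood above H2-Q4 in IF + PBS alone, where their ranges did not overlap.

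**Figure D1:**
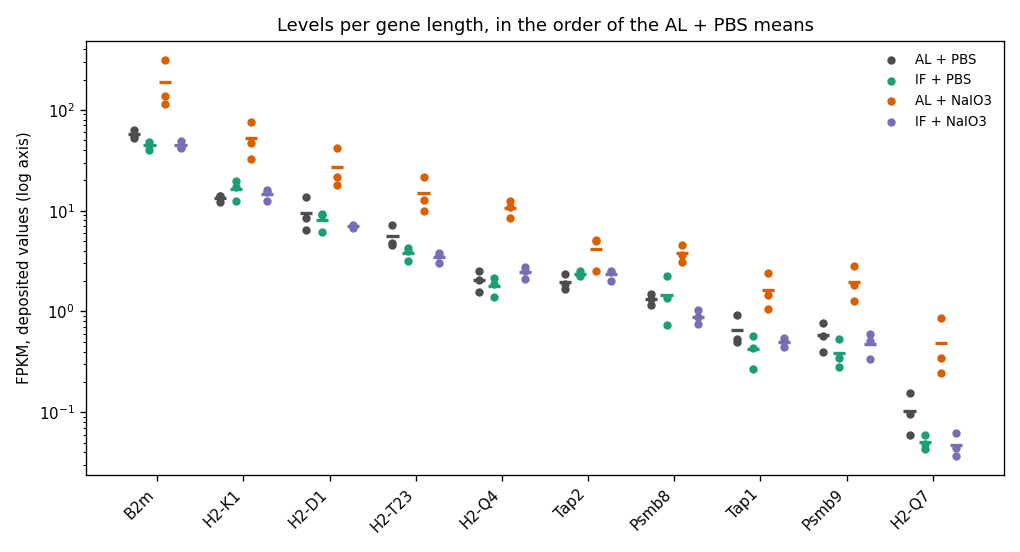
FPKM of the 10 members as deposited by the authors (log axis), 1 point per library and a bar at each group mean, ordered by the AL + PBS mean. B2m lies highest and H2-Q7 lowest in each group, and the AL + NaIO3 means lie above those of the other groups for each of the 10 genes.

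Heavy chains were higher in AL + NaIO3 than in AL + PBS libraries, with no overlap. H2-K1, which encodes a classical class I molecule that presents peptides to CD8 T cells, was at 21.6, 25.8 and 26.5 CPM in AL + PBS and at 65.2, 80.7 and 119.8 CPM in AL + NaIO3. The lowest injected AL library was above each PBS library of the same diet, and the fitted log2 difference was 1.86 (SE 0.23). H2-D1, the other classical heavy chain, was at 21.0, 16.6 and 34.1 CPM in AL + PBS and at 56.8, 42.6 and 90.7 CPM in AL + NaIO3. Its groups were separated by a small gap, and its log2 difference was 1.42 (SE 0.34).

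Non-classical heavy chains held the member with the largest fitted difference. H2-Q4, a gene of the Qa family, was at 6.37, 5.53 and 4.40 CPM in AL + PBS and at 23.6, 29.1 and 28.6 CPM in AL + NaIO3. All 3 injected libraries were close to each other, and the log2 difference of 2.33 (SE 0.20) was the largest of the 10. H2-Q7, a Qa family gene whose product is anchored by lipid, was at 0.384, 0.331 and 0.164 CPM in AL + PBS and at 0.770, 0.818 and 2.52 CPM in AL + NaIO3. Its log2 difference of 2.23 had the largest SE of the members, 0.67, and leaving out AL + NaIO3 replicate 3 gave 1.42. H2-T23, whose product presents leader peptides of other class I chains to receptors on natural killer cells, was at 14.2, 9.61 and 9.76 CPM in AL + PBS and at 19.4, 23.7 and 37.6 CPM in AL + NaIO3, a log2 difference of 1.28 (SE 0.29).

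The light chain followed the heavy chains. B2m, which every class I heavy chain needs for a stable surface complex, was at 55.2, 58.0 and 66.5 CPM in AL + PBS and at 151.3, 113.4 and 279.6 CPM in AL + NaIO3. The highest value came from the library that stood apart, and the fitted log2 difference of 1.61 (SE 0.31) was 1.14 without it.

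Transporter and immunoproteasome subunits were also higher in each AL + NaIO3 library than in each AL + PBS library. Tap1 was at 3.33, 2.03 and 1.81 CPM in AL + PBS and at 4.75, 5.05 and 7.55 CPM in AL + NaIO3, a log2 difference of 1.29 (SE 0.37). Tap2, its partner in the transporter, was at 8.87, 7.51 and 6.41 CPM in AL + PBS and at 10.6, 16.4 and 16.6 CPM in AL + NaIO3. The log2 difference of Tap2, 0.95 (SE 0.25), was the smallest of the members. Psmb8, a catalytic subunit that replaces Psmb5 in the immunoproteasome, was at 2.40, 2.31 and 2.56 CPM in AL + PBS and at 7.63, 5.80 and 7.92 CPM in AL + NaIO3, a log2 difference of 1.56 (SE 0.27). Psmb9, which replaces Psmb6, was at 0.672, 1.04 and 1.35 CPM in AL + PBS and at 2.28, 2.88 and 4.49 CPM in AL + NaIO3, a log2 difference of 1.67 (SE 0.44).

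**Figure D2:**
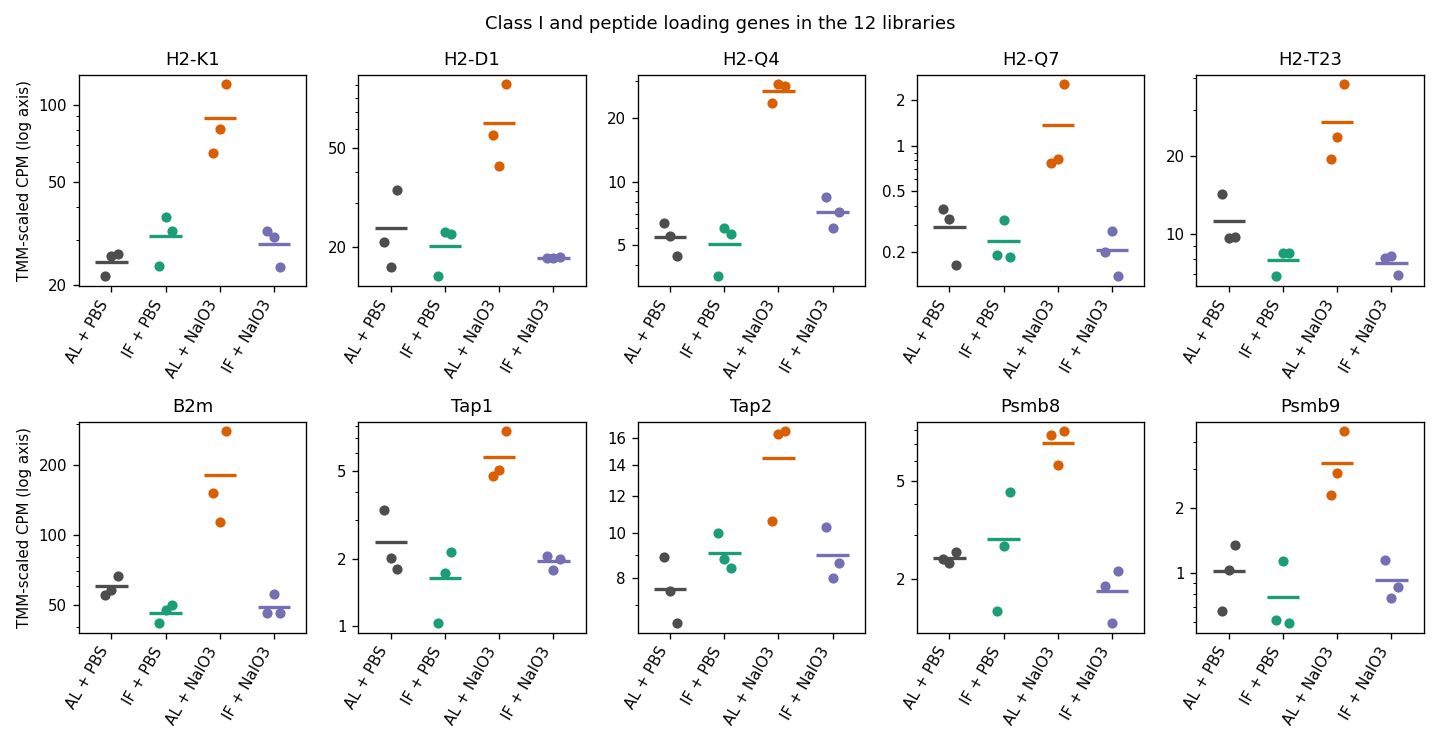
TMM-scaled CPM of each member in the 12 libraries (log axis, 1 panel per gene), with 3 points and a bar at the mean for each group. In each panel the 3 AL + NaIO3 points lie above the 9 points of the other groups.

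Over the members, 10 of 10 were higher in AL + NaIO3 and 10 of 10 had groups that did not overlap, against 9.67% of the 15612 genes tested that did so in this direction. The median log2 difference of the members was 1.59, against 0.01 for all genes tested. With edgeR, 1 member (H2-Q4) passed an adjusted p under 0.05 with a fold change of at least 1.5, against 0.0769% of all genes. DESeq2 called 9 (all but H2-Q7) where it called 2.63% of all genes, and the fit of the 12 libraries together called 5 (H2-K1, H2-D1, H2-Q4, H2-T23 and B2m) where it called 1.11%. Since the AL + NaIO3 libraries entered the contrast the members were selected on, these counts describe the members and support nothing further. The median was 1.24 without AL + NaIO3 replicate 3, and edgeR then called 3 members, H2-K1, H2-Q4 and B2m, and 0.572% of all genes. H2-Q4 was not called without any one of the AL + PBS replicates or without AL + NaIO3 replicate 2.

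Reads that fit several class I genes could have been divided between them, so the heavy chain counts were also summed. Of 43 class I heavy chain symbols listed, 29 were in the table and 22 had any count, and the 5 member heavy chains held between 61.6% and 85.2% of the summed counts of a library. The sum was 94.1 ± 9.80 CPM in AL + PBS (SD, n = 3), 91.7 ± 9.93 in IF + PBS, 248.2 ± 69.2 in AL + NaIO3 and 89.7 ± 5.79 in IF + NaIO3. Its log2 difference between AL + NaIO3 and AL + PBS was 1.41 (SE 0.21). Reads divided among the 29 genes stay in the sum, while reads given to genes that are not among the 29 (H2-Q5 and H2-T9, for example, which share stretches with H2-Q7 and H2-T23) or dropped for fitting several genes would not. Of the 150-base stretches of the longest coding transcript, 9% in H2-Q7 also occurred in another gene (H2-Q6 or H2-Q5), 1.77% in H2-D1, 0.558% in H2-T23 and 0% in H2-K1 and H2-Q4. For stretches of 75 bases the shares were 21.6% in H2-Q7, 12.1% in H2-T23, 8.46% in H2-Q4, 6.83% in H2-D1 and 1.51% in H2-K1. Whether single reads or read pairs were counted is not settled by the sources, and these shares hold for a single read. The single values of H2-Q7 are the least certain on this account, while for B2m, Tap1, Tap2, Psmb8 and Psmb9 the share was 0% at both lengths.

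Among the other heavy chain genes, those with a mean of at least 1 CPM over the 12 libraries were H2-T22 and H2-T24. H2-T22, whose product is seen by gamma delta T cells, was at 15.3 ± 1.49 CPM in AL + PBS, 15.1 ± 0.719 in IF + PBS, 26.1 ± 8.31 in AL + NaIO3 and 14.7 ± 0.927 in IF + NaIO3 (SD, n = 3). H2-T24 was at 11.4 ± 0.851, 10.6 ± 3.54, 10.7 ± 2.60 and 10.3 ± 1.33 CPM in the same order. The AL + NaIO3 and AL + PBS libraries did not overlap for H2-T22 (log2 difference 0.78, SE 0.24) and overlapped for H2-T24 (-0.09, SE 0.23), and edgeR called neither, with adjusted p of 0.327 and 0.930.

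Some members overlap other genes. B2m lies wholly inside the span of Patl2, which is on the opposite strand and had between 0 and 10 counts per library, and Tap1 and Psmb9 share 212 bases at their starts, on opposite strands. Whether strand was used in counting is not stated, so a share of Tap1 and Psmb9 reads from these 212 bases could have been assigned to either gene or to none.

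Fasted mice injected with NaIO3 had low levels of all 10 members. In IF + NaIO3 the libraries held 32.3, 30.8 and 23.6 CPM of H2-K1, 18.1, 18.1 and 18.2 CPM of H2-D1, and 8.41, 5.98 and 7.17 CPM of H2-Q4. H2-T23 was at 8.09, 8.21 and 6.96 CPM and H2-Q7 at 0.201, 0.276 and 0.139 CPM. B2m was at 45.8, 55.4 and 45.8 CPM. Each of these lies below the lowest AL + NaIO3 library of the same gene.

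Processing genes were likewise lower in each IF + NaIO3 library than in each AL + NaIO3 library. In IF + NaIO3, Tap1 was at 2.07, 1.79 and 2.01 CPM and Tap2 at 10.3, 8.02 and 8.63 CPM. Psmb8 was at 1.86, 1.32 and 2.15 CPM and Psmb9 at 1.15, 0.772 and 0.866 CPM. Tap2 was the member whose groups lay closest, with 10.3 CPM in the highest IF + NaIO3 library and 10.6 CPM in the lowest AL + NaIO3 library.

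Against AL + NaIO3, the log2 differences of IF + NaIO3 ranged from -0.71 (SE 0.25) for Tap2 to -2.73 (SE 0.69) for H2-Q7, which was at -1.93 without AL + NaIO3 replicate 3. H2-K1 was at -1.63 (SE 0.24), H2-D1 at -1.82 (SE 0.26), H2-Q4 at -1.93 (SE 0.20), H2-T23 at -1.81 (SE 0.27) and B2m at -1.91 (SE 0.31). Tap1 was at -1.58 (SE 0.33), Psmb8 at -2.01 (SE 0.32) and Psmb9 at -1.80 (SE 0.43). By these values 10 of 10 members were lower without overlap (10.1% of 15648 genes tested were, and 8.86% were higher without overlap), with a median of -1.82 against -0.01 for all genes. edgeR called 1 (H2-Q4, 0.0383% of all genes), DESeq2 9 (3.05%) and the 12-library fit 6 (1.19%). Without AL + NaIO3 replicate 3 edgeR called 6 members and 0.476% of all genes, and without any other single library it called 0 members. The members were selected on this contrast, and nothing is read from these counts.

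**Figure D3:**
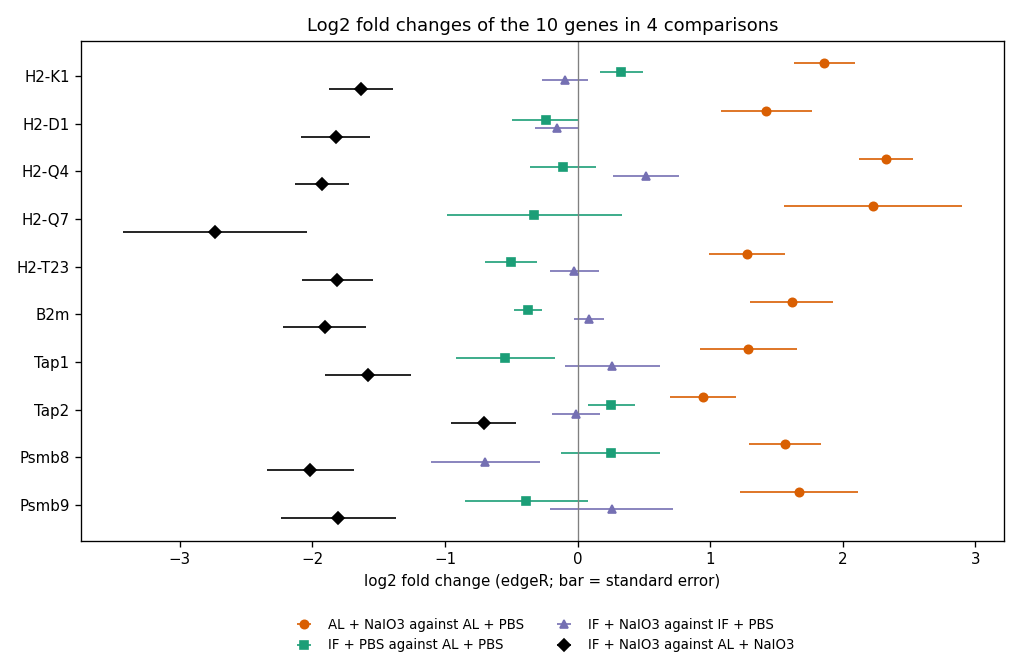
Log2 fold changes of the 10 members from edgeR in 4 comparisons, with bars of 1 standard error. AL + NaIO3 against AL + PBS lies between 0.95 and 2.33 and IF + NaIO3 against AL + NaIO3 between -2.73 and -0.71, and these comparisons share the AL + NaIO3 libraries. H2-Q7 was too low for a test in IF + NaIO3 against IF + PBS.

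The diet in mice injected with PBS was the comparison free of the libraries behind the choice of members. edgeR called 0 of 10 members and 0% of the 15361 genes tested, and DESeq2 called 0 members and 1.25% of all genes. The members lay between a log2 difference of -0.55 (Tap1) and 0.33 (H2-K1), with a median of -0.28 against 0.01 for all genes, and 3 were higher and 7 lower. These values rest in part on single libraries. With 1 library left out, Tap1 ranged from -0.79 to -0.23 and H2-K1 from 0.19 to 0.49. Without IF + PBS replicate 1 edgeR called 472 of 15602 genes (3.03%) and 0 members, the median of the members was -0.14, and H2-K1 was at 0.49 with an adjusted p of 0.037, short of the fold required. Without AL + PBS replicate 1 the median was -0.17. B2m was at 41.6, 47.4 and 49.5 CPM in IF + PBS, below the 55.2 to 66.5 CPM of AL + PBS, with a log2 difference of -0.38 (SE 0.11, adjusted p = 0.191 with edgeR). H2-T23 was at 6.87, 8.46 and 8.42 CPM in IF + PBS, below the 9.61 to 14.2 CPM of AL + PBS, with a log2 difference of -0.50 (SE 0.20, adjusted p = 0.247 with edgeR), which was -0.29 without AL + PBS replicate 1. These were the 2 members with an unadjusted p under 0.05, where 2623 of all 15361 genes had one, and the 2 without overlap, where 11.2% of all genes were lower without overlap. Summed markers of 8 lists were also lower in each IF + PBS library than in each AL + PBS library, with 64.9 to 108.8 against 132.5 to 203.8 CPM for choroid and sclera stroma and 4.85 to 11.7 against 20.6 to 43.6 CPM for cornea. Skeletal muscle markers summed to 17.8 to 85.7 against 114.2 to 248.3 CPM and erythrocyte markers to 41.8 to 57.3 against 65.1 to 84.9 CPM. Endothelium markers summed to 197.3 to 201.9 against 215.5 to 224.5 CPM, Muller cell markers to 4040 to 4132 against 4297 to 4807 CPM, photoreceptor markers to 51136 to 56297 against 57099 to 60304 CPM and lens markers to 2.63 to 2.97 against 6.64 to 208.1 CPM. Of the 10 endothelium genes, however, 7 had a positive and 3 a negative log2 difference. The RPE sum was higher, at 1900 to 2461 against 1661 to 1867 CPM. Of its 10 genes, 5 had a positive and 5 a negative log2 difference. The macrophage, lymphocyte and neutrophil sums overlapped. The part of the cells behind these lists in the levels of B2m and H2-T23 was not tested.

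The other members overlapped between the PBS groups. H2-K1 was at 23.7, 36.8 and 32.5 CPM in IF + PBS (log2 difference 0.33, SE 0.16, adjusted p = 0.323 with edgeR), H2-D1 at 15.2, 22.9 and 22.5 CPM, and H2-Q4 at 3.53, 5.97 and 5.62 CPM. Tap1 was at 1.03, 1.73 and 2.14 CPM, Tap2 at 10.01, 8.78 and 8.42 CPM, Psmb8 at 1.48, 2.71 and 4.47 CPM, and Psmb9 at 0.610, 1.14 and 0.590 CPM. H2-Q7 was at 0.193, 0.326 and 0.186 CPM. Relative to its mean, Psmb8 had the widest spread, with its lowest and highest values on either side of the AL + PBS libraries. The adjusted p of the members without a printed one ranged up to 0.856, and the heavy chain sum differed by -0.04 (log2, SE 0.11).

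Within the fasted mice, NaIO3 and PBS libraries lay close for most members. Of the 9 members tested, edgeR called 0 (0% of all 15305 genes), DESeq2 called 0 (0.47%), 0 had an unadjusted p under 0.05 where 2326 of all genes did, and the median log2 difference was -0.01 against 0.00 for all genes. Without IF + PBS replicate 1 edgeR called 0 members and 1.27% of all genes. H2-Q4 was the 1 member without overlap, at a log2 difference of 0.52 (SE 0.25), where 10.1% of all genes were higher without overlap. Its groups were separated by 5.97 against 5.98 CPM, and the difference was 0.31 without IF + PBS replicate 1. Psmb8 had the lowest value, -0.70 (SE 0.41), which was -0.23 without IF + PBS replicate 3, and B2m was at 0.09 (SE 0.11).

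Against AL + PBS, 3 of the 9 members tested had a positive log2 difference in IF + NaIO3 and 6 a negative one. edgeR called 0 of 9 members tested (0.0454% of all genes), DESeq2 called 0 (0.538%), 2 had an unadjusted p under 0.05 (B2m and H2-T23) where 1876 of all 15419 genes did, and the median log2 difference was -0.29 against 0.00 for all genes. Without AL + PBS replicate 3 the median was -0.14. H2-T23 at -0.53 (SE 0.19) and Psmb8 at -0.45 (SE 0.30) were lower without overlap, as were 9.42% of all genes. H2-T23 was at -0.32 without AL + PBS replicate 1 and Psmb8 at -0.27 without IF + NaIO3 replicate 2. No member was higher without overlap, against 8.39% of all genes. H2-Q4 was at 0.40 (SE 0.21) and H2-K1 at 0.23 (SE 0.14), and both groups overlapped.

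The difference between the diets in the NaIO3 response was negative for 10 of 10 members, from -0.95 (SE 0.30) for Tap2 to -2.39 (SE 0.93) for H2-Q7, with a median of -1.54 on the log2 scale against -0.02 for all genes. H2-Q7 was at -1.60 without AL + NaIO3 replicate 3. edgeR called 0 members at an adjusted p under 0.05, where it called 0.0313% of all genes, and 9 of 10 had an unadjusted p under 0.05, as did 1910 of all 15970 genes. DESeq2 called 6, where it called 1.36% of all genes. This term contains the contrast the members were selected on and is given as a description.

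Members varied together over the libraries. The Pearson correlation of log2 CPM between members over the 12 libraries was between 0.628 and 0.958, with a median of 0.861 over 45 pairs. The correlation of a single member with the mean of the others was lowest for Tap2 (0.791) and highest for B2m (0.960). The libraries share groups, and the values are given as a description. The mean of the members, centred per gene, was 0.95, 1.03 and 1.71 on the log2 scale in AL + NaIO3 and between -0.80 and -0.23 in the other 9 libraries.

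The genes whose pattern was most like that mean, among 15960 other genes, were C4b (r = 0.978), Hsd17b2 (0.977), Crym (0.975), Nes (0.973) and C1qb (0.973) over the 12 libraries. C4b, a complement component encoded in the MHC between the class I regions, was at 4.58 to 5.03 CPM in AL + PBS, 2.76 to 5.84 in IF + PBS, 20.8 to 68.4 in AL + NaIO3 and 2.95 to 7.55 in IF + NaIO3. C1qb, a subunit of complement C1q made by microglia and macrophages, was at 8.93 to 11.8 CPM in AL + PBS and 33.2 to 88.5 CPM in AL + NaIO3. Crym, a thyroid hormone binding crystallin, was at 40.2 to 49.4 CPM in AL + PBS and 129.6 to 232.9 CPM in AL + NaIO3.

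Other genes of the loading pathway were then described from a fixed list. Of 13 listed genes, 13 were tested in AL + NaIO3 against AL + PBS. edgeR called 0 (0.0769% of all genes) and DESeq2 2 (2.63%). An unadjusted p under 0.05 was found for 4 (1599 of all 15612 genes). Without overlap, 5 were higher and 1 lower, where 9.67% and 8.63% of all genes were. The median log2 difference was 0.30 against 0.01 for all genes. Nlrc5, the transactivator of class I genes, had the largest difference at 2.34 (SE 0.62, adjusted p = 0.284 with edgeR), with 1.11 ± 0.473 CPM in AL + PBS and 5.54 ± 3.76 CPM in AL + NaIO3 (SD, n = 3). Psmb10, the third catalytic subunit of the immunoproteasome, was at 0.73 (SE 0.17, adjusted p = 0.259) and the peptide trimming enzyme Erap1 at 0.63 (SE 0.18, adjusted p = 0.310). The proteasome activator subunits Psme1 and Psme2 were at 0.57 (SE 0.12, adjusted p = 0.201) and 0.30 (SE 0.19, adjusted p = 0.614). Tapbp, which bridges class I to TAP, was at 0.38 (SE 0.17, adjusted p = 0.506). The gene without overlap in the other direction was the chaperone Calr, at -0.31 (SE 0.14, adjusted p = 0.498), a gene named after its value was seen.

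Constitutive proteasome subunits lay near 0. Of 14 listed genes, 14 were tested in AL + NaIO3 against AL + PBS. edgeR called 0 (0.0769% of all genes) and DESeq2 0 (2.63%). An unadjusted p under 0.05 was found for 0, where 1599 of all 15612 genes had one. Groups without overlap were found for 0, where 9.67% of all genes were higher and 8.63% lower. The median log2 difference was 0.05 and the range was from -0.15 to 0.26. Psmb5, Psmb6 and Psmb7, the catalytic subunits replaced by Psmb8, Psmb9 and Psmb10, were at -0.04 (SE 0.15), -0.15 (SE 0.34) and 0.12 (SE 0.18). The 3 with the largest size were Psma4 at 0.26 (SE 0.15), Psma5 at 0.18 (SE 0.17) and Psmb3 at 0.18 (SE 0.20). Psmb5 was at 85.4 ± 8.28 CPM in AL + PBS and 82.3 ± 13.9 CPM in AL + NaIO3 (SD, n = 3), while Psmb8 in the same libraries was at 2.43 ± 0.126 and 7.12 ± 1.15 CPM.

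Interferon receptors, kinases and transcription factors were nearly all at positive values. Of 16 listed genes, 14 were tested, 13 with a positive and 1 with a negative log2 difference (52.3% of all genes were positive). edgeR called 0 (0.0769% of all genes) and DESeq2 2 (2.63%). An unadjusted p under 0.05 was found for 4 (1599 of all 15612 genes), and 4 were higher without overlap (9.67% of all genes). The median log2 difference was 0.29 against 0.01 for all genes. Irf8, a transcription factor of myeloid cells, was at 2.25 (SE 0.41, adjusted p = 0.148 with edgeR), Irf1, which binds class I and processing gene promoters, at 1.22 (SE 0.24, adjusted p = 0.183) and the receptor subunit Ifnar2 at 0.96 (SE 0.32, adjusted p = 0.361).

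The lists were also counted in the PBS mice, where the diets were compared. edgeR and DESeq2 called 0 genes of the loading, interferon and constitutive proteasome lists, where they called 0% and 1.25% of all genes. In the same order, 2 of 13, 3 of 14 and 0 of 14 genes had an unadjusted p under 0.05, where 2623 of all 15361 genes did. The median log2 differences were 0.08, -0.03 and 0.06. In IF + NaIO3 against AL + NaIO3 edgeR called 0 of each list (0.0383% of all genes), and DESeq2 called 2, 4 and 0 (3.05%). An unadjusted p under 0.05 was found for 7, 5 and 0, where 1828 of all 15648 genes had one. The medians were -0.16, -0.29 and 0.07. Levels of 3 of these genes in the order AL + PBS, IF + PBS, AL + NaIO3 and IF + NaIO3 show where they were high. Psmb10 was at 11.8 ± 0.351, 12.3 ± 1.35, 19.5 ± 2.84 and 11.1 ± 1.11 CPM (SD, n = 3). Irf1 was at 7.34 ± 0.922, 6.76 ± 0.556, 16.9 ± 4.33 and 7.21 ± 0.928 CPM. Nlrc5 was at 1.11 ± 0.473, 1.13 ± 0.398, 5.54 ± 3.76 and 0.982 ± 0.0388 CPM. For Psmb10, Irf1 and Nlrc5 each AL + NaIO3 library lay above each AL + PBS library.

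**Figure D4:**
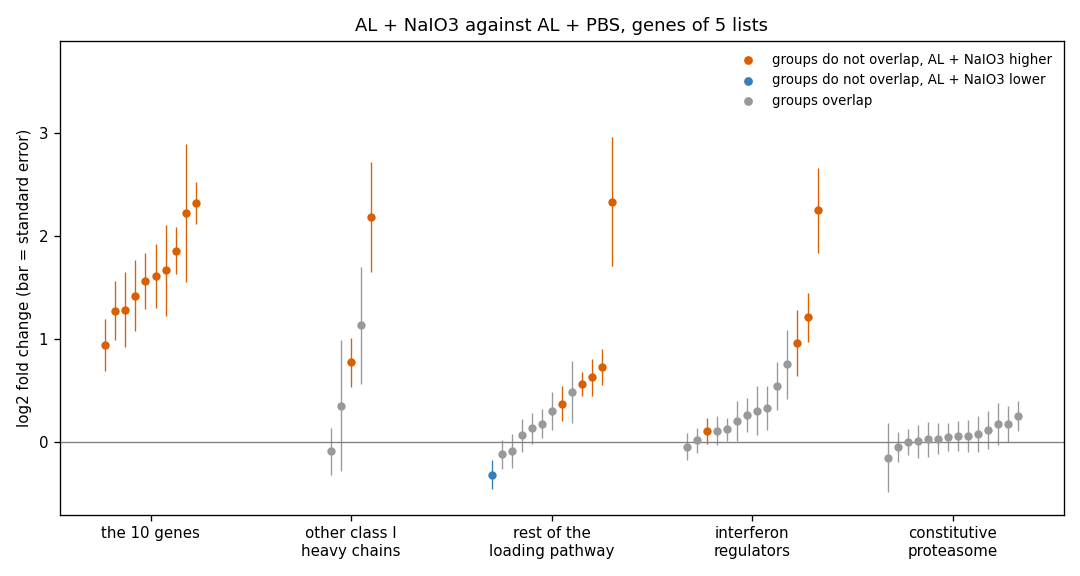
Log2 fold changes between AL + NaIO3 and AL + PBS with bars of 1 standard error, for the 10 members, the other class I heavy chains tested, the rest of the loading pathway, interferon regulators and constitutive proteasome subunits. The members lie between 0.95 and 2.33, and the constitutive subunits between -0.15 and 0.26 with overlapping groups.

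Sums of macrophage and microglia markers and of lymphocyte markers were higher in the same libraries as the members. The 15 macrophage and microglia markers summed to 273.0, 196.3 and 1030.4 CPM in AL + NaIO3 and to between 71.2 and 96.7 CPM in the other 9 libraries, with 14 or 15 of the 15 detected in every library. Lyz2 alone made 571.8 CPM of the highest sum. Without Lyz2, a choice made after seeing the data, the sums were 223.7, 162.0 and 458.6 CPM in AL + NaIO3 and between 61.7 and 83.7 CPM elsewhere. The 12 lymphocyte markers summed to 6.22, 5.90 and 14.9 CPM in AL + NaIO3, with 10 to 12 detected, and to between 0.693 and 2.40 CPM in the other libraries, with 3 to 7 detected. Gzmb, Klrd1 and Ms4a1 had 0 counts in each of those 9 libraries, which allows up to 3 counts in each. In AL + NaIO3 the counts were 11 to 21 for Gzmb, 0 to 53 for Klrd1 and 0 to 7 for Ms4a1. Of the 12 lymphocyte markers, 7 were tested against AL + PBS, and 5 were higher without overlap (9.67% of all genes were). edgeR called 0 (0.0769% of all genes) and DESeq2 3 (2.63%), and 4 had an unadjusted p under 0.05 (1599 of all 15612 genes). Of the 15 macrophage and microglia markers, 14 were higher without overlap in AL + NaIO3 than in AL + PBS (9.67% of all genes were). edgeR called 0 (0.0769% of all genes) and DESeq2 11 (2.63%), and 14 had an unadjusted p under 0.05 (1599 of all 15612 genes). The 8 neutrophil markers summed to between 4.81 and 6.99 CPM in AL + NaIO3 and between 1.59 and 4.37 CPM elsewhere, a sum carried by Csf3r (mean 4.64 against 1.28 CPM in AL + PBS), while S100a8 was at 0.0354 against 0.260 CPM and Ly6g had 0 counts in both groups. The 10 endothelium markers summed to between 249.5 and 509.5 CPM in AL + NaIO3 and between 191.0 and 224.5 CPM elsewhere. Most of this came from Kdr (mean 245.4 against 160.2 CPM in AL + PBS), and 3 of the 10 were higher without overlap (9.67% of all genes were). edgeR called 0 (0.0769% of all genes) and DESeq2 0 (2.63%), and 3 had an unadjusted p under 0.05 (1599 of all 15612 genes). The part of these cells in the levels of the members was not tested, and in bulk tissue a change in cell numbers and a change in RNA per cell cannot be told apart.

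**Figure D5:**
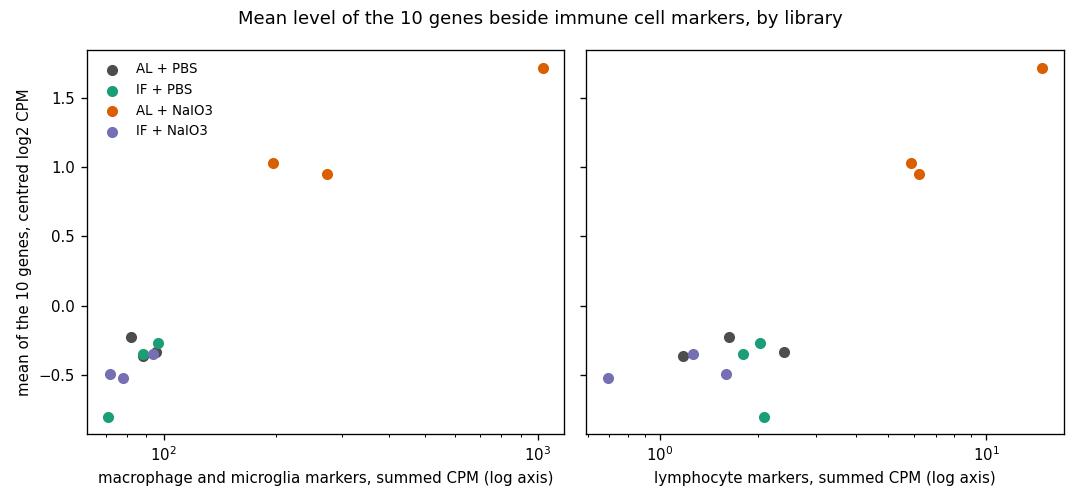
Mean of the 10 members (centred log2 CPM) for each of the 12 libraries, against the summed CPM of 15 macrophage and microglia markers and of 12 lymphocyte markers (log axes). The 3 AL + NaIO3 libraries lie apart from the other 9 on both axes, and AL + NaIO3 replicate 3 is the highest on each.

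Of the 8 Muller cell markers, 3 were higher and 1 lower without overlap in AL + NaIO3 than in AL + PBS, where 9.67% and 8.63% of all genes were. Before adjustment 2 of them had a p under 0.05, as did 1599 of all 15612 genes. The calls were 0 with edgeR (0.0769% of all genes) and 2 with DESeq2 (2.63%). Gfap had group means of 17.1, 13.7, 171.2 and 13.3 CPM and Vim of 126.2, 133.7, 254.7 and 130.0 CPM in AL + PBS, IF + PBS, AL + NaIO3 and IF + NaIO3. The 10 RPE markers were divided in AL + NaIO3 against AL + PBS. The visual cycle and transport genes Rpe65 (48.5 against 119.6 CPM), Lrat, Rgr, Rdh5 and Ttr were lower without overlap, where 8.63% of all genes were. The other 5 overlapped between the groups. Of these, the pigment cell genes Pmel, Tyr, Dct and Mlana were high in AL + NaIO3 replicate 3 alone. Pmel was at 29.6, 15.3 and 417.0 CPM in AL + NaIO3 and at 28.3 to 51.2 CPM in AL + PBS, and Tyr at 8.92, 6.76 and 93.9 CPM and at 10.2 to 12.4 CPM. Before adjustment 5 of the 10 RPE markers had a p under 0.05, as did 1599 of all 15612 genes. The calls were 0 with edgeR (0.0769% of all genes) and 4 with DESeq2 (2.63%). The part of these in the levels of the members was not tested. Photoreceptor markers differed among the AL + NaIO3 libraries, and their part in the levels of the members was not tested. AL + NaIO3 replicate 1 held 65575 CPM of photoreceptor markers, above the 57099 to 60304 CPM of AL + PBS, and the mean of its members was 0.95 on the centred log2 scale. AL + NaIO3 replicate 3 held 19738 CPM, and the mean of its members was 1.71. Without replicate 3, the log2 differences of the members from AL + PBS lay between 0.83 for Tap2 and 2.27 for H2-Q4.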

How the data were processed

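Poly-A RNA of 12 samples was sequenced with reads of 150 bases, described as single-end in the methods and as PE150 in the labels. The authors deposited a table of gene counts, not normalized, and a separate table of FPKM values (fragments scaled to gene length and depth). Counts were tested, and FPKM was used only to compare levels between genes. Another deposited table, with fold changes and p-values from the authors' comparison of IF + NaIO3 with AL + NaIO3, was not used. The submitters' processing notes name HISAT2, StringTie, DESeq2 and edgeR, with no role or version, and whether counting used strand is not given in the sources used here. Reads that fit several class I genes could affect single heavy chain values, so heavy chain counts were also summed.

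Genes were tested with edgeR 4.0.16 (R 4.3.3; quasi-likelihood test, TMM factors, filterByExpr, Benjamini-Hochberg over all genes tested) on the 6 libraries of each comparison, and with all 12 for the interaction. Genes were called at an adjusted p below 0.05 where they also differed by 1.5-fold or more, and for the interaction at that adjusted p alone. Alternatives were DESeq2 1.42.0, upper quartile scaling, other filters, all 12 libraries fitted together, a replicate block and leaving out each library. The scripts were tested on simulated data. The p-values weigh a difference between groups against the spread between samples of the same group.

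The members and gene lists were chosen with earlier results of these data known. Named were all members, other heavy chains with a mean of at least 1 CPM, the 3 genes of each pathway list with the largest log2 difference between AL + NaIO3 and AL + PBS plus catalytic, loading and regulatory genes fixed by name, and the 5 genes most alike in pattern. Correlations used log2 CPM with a prior count of 2. Promoters were read from RefSeq on GRCm38.p6. Protein sequences were not used here. One gene fixed by name is not reported here.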

Additional observations from a re-analysis of the deposited data

Results flagged for a closer look

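For 2 members the NaIO3 libraries of the diets lay on opposite sides of the PBS mean of their diet. The mean of H2-D1 in NaIO3 minus PBS libraries was 39.5 CPM in AL mice and -2.12 CPM in IF mice. The mean of Psmb8 differed by 4.69 CPM in AL mice and by -1.11 CPM in IF mice. Every NaIO3 library of the AL mice was above, and every NaIO3 library of the IF mice below, the PBS mean of the same diet. By this criterion the difference was not tested, and these values contain the contrast the members were selected on. The value of Psmb8 in IF mice rests on IF + PBS replicate 3 (4.47 CPM against 1.48 and 2.71 CPM). Without it the IF + NaIO3 library at 2.15 CPM lies above the mean of the other PBS libraries, and the fitted log2 difference in IF mice is -0.23, against -0.70 with it. That of H2-D1 ranged from -0.32 to -0.06 with a library left out.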

How the results depend on the processing

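For AL + NaIO3 against AL + PBS, edgeR called 1 member (0.0769% of all genes) and DESeq2 9 (2.63%). Upper quartile scaling gave 2 (0.0833%) and no filter on low counts 2 (0.103%). At least 10 counts in each library gave 2 (0.089%) and 12 libraries fitted together 5 (1.11%). Leaving out a library gave 0 to 3. The number was 0 without any of the AL + PBS replicates (0% of all genes) or AL + NaIO3 replicate 2 (0.0316%). It was 2 without AL + NaIO3 replicate 1 (0.0503%) and 3 without AL + NaIO3 replicate 3 (0.572%). The heavy chain sum was 1.41 with DESeq2 and 1.40 with 12 libraries, past the threshold in both, while the main edgeR fit did not pass it. With a library left out the sum was at 1.15 to 1.53. It uses the AL + NaIO3 libraries and is a description as well. For IF + NaIO3 against AL + NaIO3, DESeq2 called 9 (3.05% of all genes) and the 12-library fit 6 (1.19%), with sums of -1.48 and -1.47. Leaving out a library gave 0 to 6 calls and sums of -1.60 to -1.23. There were 6 calls without AL + NaIO3 replicate 3 (0.476% of all genes) and 0 without any other library (0% to 0.0125%). For the interaction, DESeq2 called 6 (1.36% of all genes) and the fit with no filter 1 (0.0687%), with sums of -1.45 and -1.43. Leaving out a library gave 0 to 5 calls, with 5 without AL + NaIO3 replicate 1 (where 2.26% of all genes were called), and sums of -1.54 to -1.18. The cause was not tested. No member turned sign in these 3 comparisons under any setting run.

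Leaving out a library turned the sign of small differences. The heavy chain sum ranged from -0.11 to 0.051 for IF + PBS against AL + PBS, from -0.11 to 0.024 for IF + NaIO3 against IF + PBS and from -0.15 to 0.0025 for IF + NaIO3 against AL + PBS. For IF + PBS against AL + PBS, H2-Q4 ranged from -0.25 to 0.089, H2-D1 from -0.45 to 0.11 and Psmb8 from -0.21 to 0.56. For IF + NaIO3 against IF + PBS, Tap2 ranged from -0.13 to 0.068, H2-K1 from -0.25 to 0.044, H2-T23 from -0.12 to 0.043 and B2m from -0.013 to 0.14. For IF + NaIO3 against AL + PBS, Tap1 ranged from -0.45 to 0.022 and Psmb9 from -0.36 to 0.11.

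The replicate numbers were not taken to pair samples, since same-numbered samples correlated between -0.101 and 0.138 in their deviations from group means. With the replicate number as a block, 3 members and 0.179% of all genes were called for AL + NaIO3 against AL + PBS, with a heavy chain sum of 1.38. For IF + NaIO3 against AL + NaIO3, 2 members and 0.179% of all genes were called. Counts of 4 to 14 in H2-Q7 outside AL + NaIO3 limit its precision.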
